A study of Saccharomyces cerevisiae with 16 samples.

Results

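The 5S rRNA of Saccharomyces cerevisiae was followed nucleotide by nucleotide in 16 PSI-seq libraries, in which each count is the number of sequencing reads whose reverse transcription stopped at 1 position of the genome. The members are the 121 nucleotides of the RDN5 gene next to the first rDNA copy, on the forward strand of chromosome 12 at positions 459677 to 459797 as deposited, out of the 131 positions that the selection covers and the 5704895 positions listed in all. RNA of the strain BY4741 came from heat shock (45 °C for 30 min), from stationary phase (an optical density of 4 in the labels) and from 2 log phase samples (0.8 in the labels), one named for the heat shock that followed (pre-HS) and the other for the stationary phase that followed (pre-stat). By the study's methods 2 cultures were grown, so that heat shock and log phase (pre-HS) shared a culture, stationary phase and log phase (pre-stat) shared the other, and the 4 experiments are not fully independent. Each experiment had 4 libraries and no replicate of any of them, from natural RNA purified for poly(A) and from unmodified RNA amplified and transcribed in vitro from total yeast RNA (IVT), each with a portion that received the carbodiimide CMCT (+CMCT) and a portion that did not (−CMCT). The 4 libraries of an experiment were sequenced together, and all samples are wild type cells of 1 strain, with no strain lacking a pseudouridine synthase.

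5S rRNA is the small RNA of the large ribosomal subunit that RNA polymerase III transcribes from its own gene, placed in yeast within the rDNA repeat, and it enters the ribosome with the ribosomal proteins Rpl5 and Rpl11 as part of the central protuberance. Pseudouridine is the isomer of uridine in which the base is joined to the sugar through carbon, and in yeast the synthase Pus7 makes the single known pseudouridine of 5S rRNA, at nt 50. CMCT forms adducts with several bases, an alkaline step removes them from all but pseudouridine, and reverse transcriptase stops beside the adduct that is left, so a modified nucleotide is one where reads pile up with CMCT and not without it. IVT RNA, unmodified by the study's methods, has the same sequence and is meant to give the CMCT-dependent stops that need no pseudouridine.

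The place of nt 50 in the file was taken from other RNAs. At 43 known pseudouridines of 18S and 25S rRNA the median log2 ratio of +CMCT to −CMCT reads was highest at the listed position 1 nt past the annotated coordinate, with 3.77, 4.33, 4.12 and 4.05 in heat shock, stationary phase, log phase (pre-HS) and log phase (pre-stat), against 0.48, 2.24, 0.59 and 1.58 at the annotated coordinate itself. With the same step of 1 nt applied to RDN5, nt 50 is the listed position 459726 and nt 1 is 459677. The offset therefore did not rest on any 5S value. The 18S and 25S rRNA genes were numbered from the opposite strand to RDN5, however. The step runs towards the 5′ end in them and towards the 3′ end in RDN5. That the same step holds for RDN5 was assumed and not tested.

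5S rRNA was covered unevenly, and more deeply in natural than in IVT RNA. Natural +CMCT libraries had 14855 (heat shock), 9009 (stationary phase), 3972 (log phase, pre-HS) and 4748 (log phase, pre-stat) reads on the 121 nucleotides, and natural −CMCT libraries had 16343, 2220, 3707 and 6953 in the same order. IVT +CMCT libraries had 1411, 642, 530 and 1052, and IVT −CMCT libraries 409, 938, 143 and 193. As a percentage of the library, with positions of equal counts taken once, 5S reads made up 0.0491 to 0.235% of natural libraries and 0.0062 to 0.0151% of IVT libraries, so the 2 ranges did not overlap. The natural percentage was 9.71, 7.19, 8.43 and 3.25 times the IVT percentage with CMCT, and 19.4, 9.33, 23.8 and 20.9 times without it. In natural RNA the percentage with CMCT was 0.608, 0.802, 0.787 and 0.311 times that without it. In IVT RNA it was 1.22, 1.04, 2.22 and 2.0 times that without it. Unmodified 18S and 25S transcripts were added to the IVT RNA in the study's methods and 5S was not among them, and every IVT value of 5S rests on the low depths given here.

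Reads on natural 5S rRNA lay mostly between nt 49 and nt 90, which held 81.1 to 95.2% of them in the 8 natural libraries, and counts fell steeply past nt 90. The study selected short cDNA inserts from size-selected RNA fragments, and the part of that selection in this profile was not tested. In natural −CMCT RNA nt 85 was the most read nucleotide in heat shock (1598 reads, 9.78% of 5S reads), log phase (pre-HS) (314 reads, 8.47%) and log phase (pre-stat) (781 reads, 11.2%), and nt 71 was in stationary phase (181 reads, 8.15%). With CMCT the most read nucleotide was nt 50 in heat shock and log phase (pre-HS), nt 71 in stationary phase (704 reads) and nt 77 in log phase (pre-stat) (315 reads). Over the 121 nucleotides the log2 read counts of natural libraries were alike between experiments, with Pearson's r of 0.826 to 0.922 over the 6 pairs with CMCT and 0.817 to 0.938 without it, a description over nucleotides that share fragment ends and sequence.

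**Figure D1:**
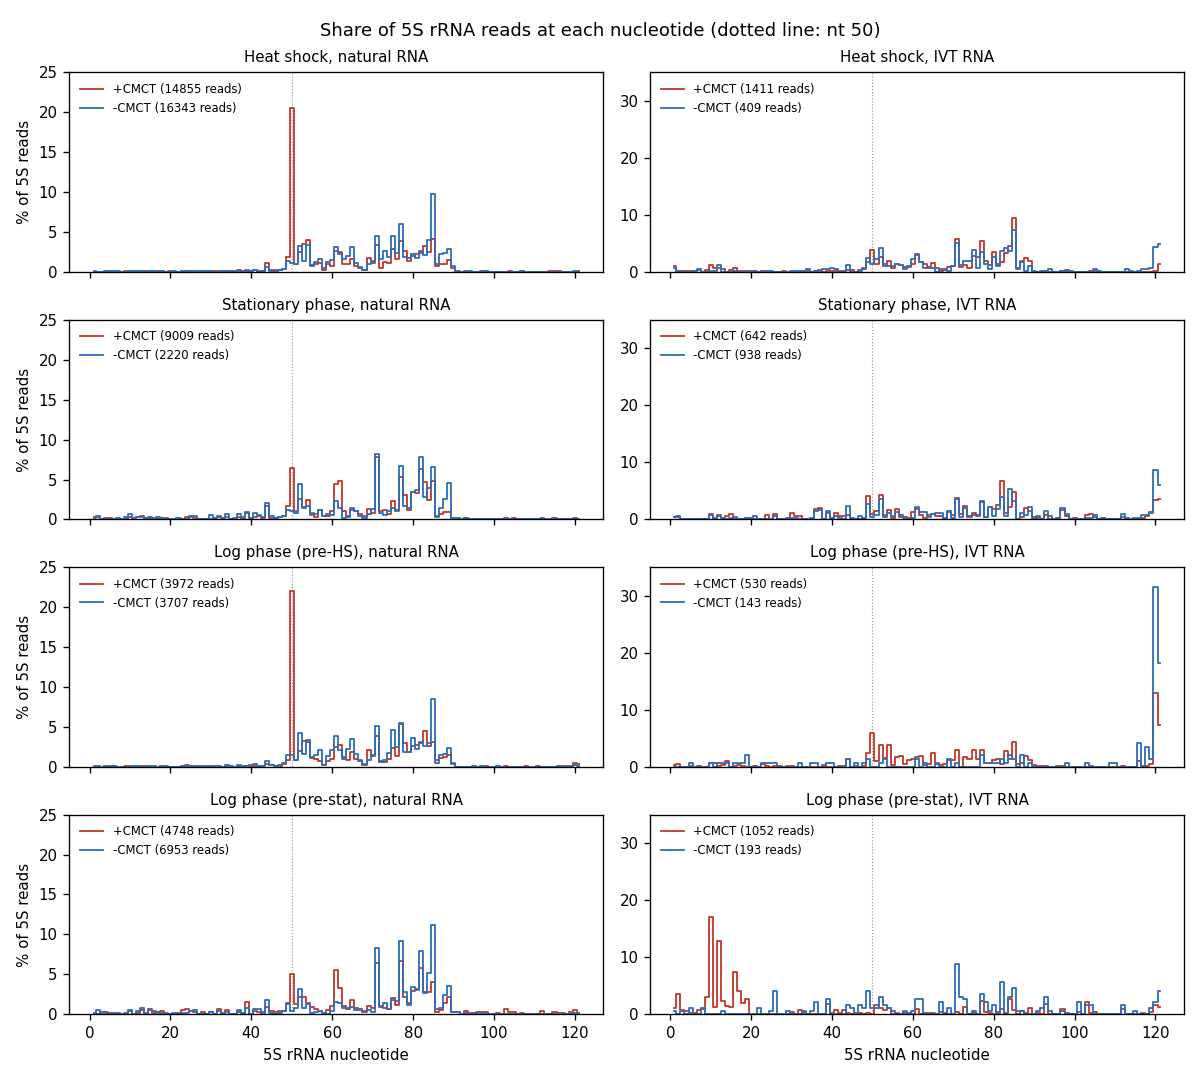
Reads at each 5S rRNA nucleotide as a percentage of the library's 5S reads (vertical axis, natural RNA left and IVT RNA right, with different scales) against the nucleotide number; red lines are +CMCT, blue lines −CMCT, with the number of 5S reads in each legend. In natural RNA nt 50 takes 20.5% and 22.0% of +CMCT reads in heat shock and log phase (pre-HS), and 6.38% and 5.10% in stationary phase and log phase (pre-stat), while the IVT profiles differ between experiments.

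In natural RNA nt 50 had more reads with CMCT than without it in every experiment. It had 3045 reads with CMCT and 176 without it in heat shock, 575 and 23 in stationary phase, 875 and 56 in log phase (pre-HS), and 242 and 28 in log phase (pre-stat). All 4 +CMCT counts were above all 4 −CMCT counts, but in each experiment the natural +CMCT library was also the deeper one. It had 10416279 reads against 6966983 in heat shock, 3421461 against 2512204 in log phase (pre-HS) and 9670488 against 4406800 in log phase (pre-stat). The log2 ratio, taken after adding 1 read to each count, was 4.11 in heat shock, 4.58 in stationary phase, 3.94 in log phase (pre-HS) and 3.07 in log phase (pre-stat), and the median of the other 120 nucleotides was −0.07, 1.58, −0.15 and 0. The stationary phase libraries were the most unequal in depth, with 8283018 reads with CMCT and 1636982 without it, and there the median ratio of the other 5S nucleotides was raised as well. The study judged its stationary phase data to be of lower technical quality and left them out of its later work.

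Ranked by that log2 ratio, nt 50 was the highest of the 121 nucleotides in heat shock, stationary phase and log phase (pre-HS), and number 6 in log phase (pre-stat). The 5 nucleotides above it there had no −CMCT read and few +CMCT reads, with 31 reads at nt 103, 12 each at nt 46 and nt 104, 11 at nt 28 and 10 at nt 94. After 10 reads were added to each count in place of 1, nt 50 was the highest in log phase (pre-stat) as well. After 0.5 reads were added it was number 2 in heat shock, 3 in stationary phase, 1 in log phase (pre-HS) and 8 in log phase (pre-stat). The next nucleotides in the other experiments were nt 31 in heat shock (11 reads against 0, log2 ratio 3.58), nt 63 in stationary phase (100 against 5, log2 ratio 4.07) and nt 103 in log phase (pre-HS) (5 against 0, log2 ratio 2.58).

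Most of the remaining nucleotides among the 5 highest of an experiment rested on few reads, and several had ratios near or below 0 in another experiment. Nt 38 had 18 reads with CMCT against 2 without it in heat shock, but 0 against 9 in log phase (pre-stat), where its log2 ratio was −3.32. Nt 33 and nt 4 were number 3 and number 4 in stationary phase with 14 and 12 reads against 0, and their log2 ratios in heat shock were −1.0 and −0.81. Nt 62 was number 5 in stationary phase with 435 reads against 33, a log2 ratio of 3.68, but had 0.03 in heat shock, 0.47 in log phase (pre-HS) and 0.72 in log phase (pre-stat). Nt 24 was above 0 in 4 of 4 experiments, number 3 in log phase (pre-HS) with 8 reads against 1, number 6 in stationary phase with 32 against 2 (log2 ratio 3.46), and lower in log phase (pre-stat) with 31 against 8 (1.83) and in heat shock with 24 against 17 (0.47). Nt 10, nt 13, nt 111, nt 117 and nt 118 shared number 4 with 2 to 5 reads against 0 or 1. Of all these, nt 103 was the one that was among the 5 highest in 3 experiments besides nt 50, and nt 104 was among them in 2.

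**Figure D2:**
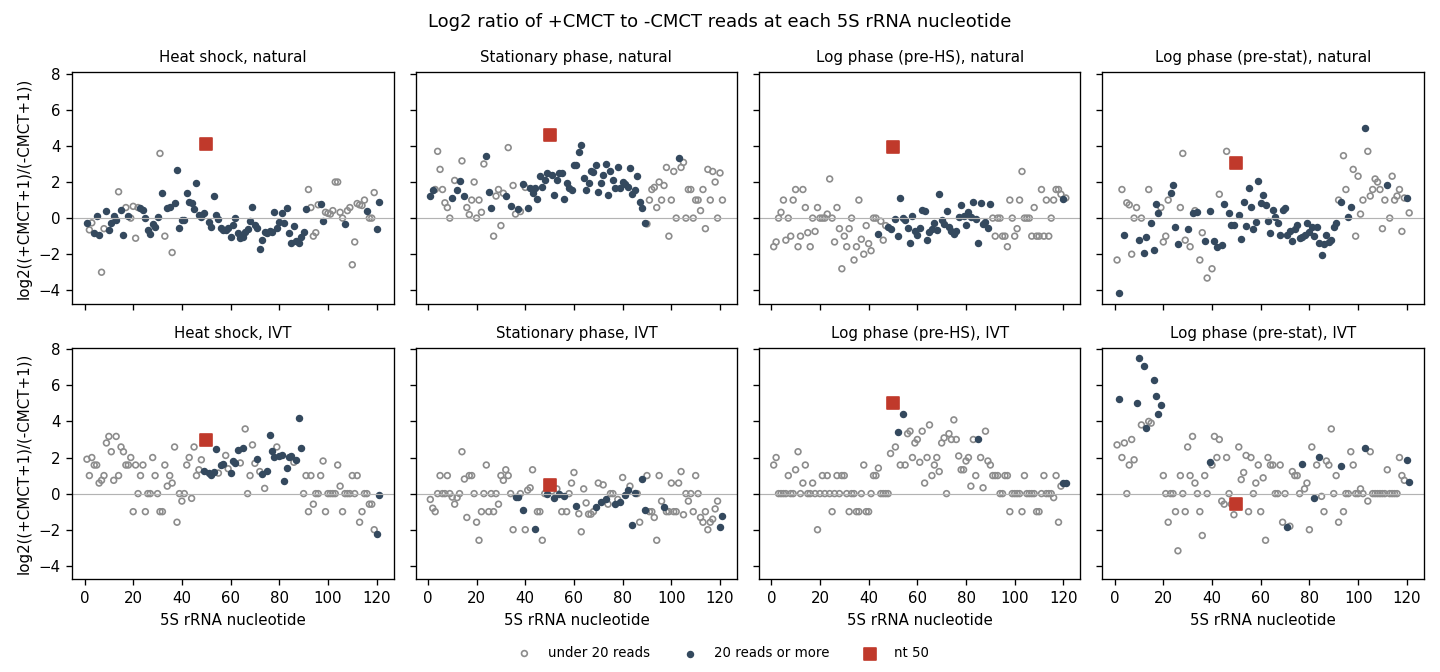
Log2 ratio of +CMCT to −CMCT reads, 1 read added to each (vertical axis), at each 5S rRNA nucleotide (horizontal axis) for natural RNA (top) and IVT RNA (bottom) in the 4 experiments; open circles have under 20 reads in the 2 libraries together, filled circles 20 or more, and the red square is nt 50. In natural RNA the square lies at 3.07 to 4.58 and is the highest point in 3 of the 4 experiments, and in IVT RNA it lies between −0.58 and 5.0.

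The neighbours of nt 50 ranked between 29 and 79. Nt 49 had log2 ratios of 0.30, 2.47, −0.62 and −0.40 in heat shock, stationary phase, log phase (pre-HS) and log phase (pre-stat), and ranked 44, 29, 79 and 72 of 121. Nt 51 had −0.21, 2.38, −0.04 and 0.15 and ranked 67, 30, 58 and 58. The +CMCT reads of heat shock were 284 at nt 49 and 148 at nt 51, beside 3045 at nt 50.

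To test the CMCT effect against the spread over experiments, the 8 natural libraries were fitted together at all 604374 positions with at least 10 reads, with the experiment as a block, by edgeR's quasi-likelihood test and Benjamini-Hochberg adjustment over all of them. Across the genome 0.478% of positions were called higher with CMCT and 0.0455% lower at an adjusted p under 0.05, 0.524% in either direction. Of the 116 5S nucleotides that passed the minimum, 2 were called higher (nt 50 and nt 103) and 2 lower (nt 85 and nt 89). The unadjusted p was under 0.05 for 4 higher and 17 lower of the 116, against 42854 higher and 4415 lower of all 604374 positions. Nt 50 rose by 3.31 on the log2 scale (SE 0.40, adjusted p = 1.45e-12), higher in 4 of 4 experiments. The median over the 116 nucleotides was −0.35, against 0.59 over all positions, and scaling by library sizes alone lowered the median over all positions to 0.30 and the share of higher calls among all calls to 57.5%, against 91.3%.

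Nt 50 kept an adjusted p of at most 0.0144 when any 1 experiment was left out, the highest of them without log phase (pre-HS), and its log2 difference then ranged over 2.99 to 3.48. Without the block the difference was 3.60 (SE 0.80) and the adjusted p was 0.128, and 26 positions of the genome were called, so the call needs the pairing of +CMCT and −CMCT libraries within experiments. Nt 49 and nt 51 differed by −0.25 (SE 0.38) and −0.14 (SE 0.39) on the log2 scale, with edgeR adjusted p = 0.948 and 0.977.

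Nt 103, near the 3′ end of the molecule, rested on 62 natural reads with CMCT and 2 without it in all, namely 7 against 1 in heat shock, 19 against 1 in stationary phase, 5 against 0 in log phase (pre-HS) and 31 against 0 in log phase (pre-stat). It was higher with CMCT in 4 of 4 experiments, by 3.78 on the log2 scale (SE 0.99, edgeR adjusted p = 0.0325). The call was lost without any 1 of the 4 experiments (adjusted p = 0.0589 to 0.464), with library sizes alone (0.0966) and with positions from 3 reads on (0.145). In IVT RNA nt 103 had 0 reads against 0 in heat shock, 5 against 3 in stationary phase, 0 against 1 in log phase (pre-HS) and 22 against 3 in log phase (pre-stat).

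Nt 85 and nt 89, both in the well covered stretch before nt 90, were lower with CMCT relative to the rest of the library. Lower values were common on 5S rRNA, where 39 of the 116 nucleotides tested had a difference above 0 and the median was −0.35. Nt 85 had 621 reads with CMCT and 1598 without it in heat shock, 430 and 146 in stationary phase, 122 and 314 in log phase (pre-HS), and 191 and 781 in log phase (pre-stat). Its fitted difference was −1.50 (SE 0.38, edgeR adjusted p = 0.022), and nt 89 had −1.46 (SE 0.37, adjusted p = 0.0231). Nt 89 had fewer reads with CMCT in 4 of 4 experiments (224 against 466, 86 against 102, 60 against 87, and 102 against 242), whereas nt 85 did in 3 of 4, with stationary phase the exception in unscaled reads. Without log phase (pre-HS) both calls were lost (adjusted p = 0.891 for nt 85 and 0.399 for nt 89), without heat shock that of nt 89 (0.0573), and with positions from 3 reads on both (0.822 and 0.494). Library sizes alone gave 11 lower 5S nucleotides in place of 2, and 1191 lower positions of all 604374 in place of 275. Of the other most read nucleotides, nt 71 and nt 77 were not called.

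Within 5S rRNA the share of reads at nt 50 does not depend on library totals, and it separated +CMCT from −CMCT natural libraries in full. It was 20.5% with CMCT and 1.08% without it in heat shock, 6.38% and 1.04% in stationary phase, 22.0% and 1.51% in log phase (pre-HS), and 5.10% and 0.403% in log phase (pre-stat), which is 19.0, 6.16, 14.6 and 12.7 times as high with CMCT. The difference averaged 12.5 percentage points (SD 8.65, n = 4), positive in 4 of 4 experiments, with p = 0.13 in a two-sided exact permutation test that exchanges the 2 libraries within each experiment, the smallest p that 4 experiments allow.

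The level with CMCT fell into a higher and a lower pair. Heat shock had 20.5% (95% exact binomial interval 19.9 to 21.2%) and log phase (pre-HS), from the same culture, 22.0% (20.8 to 23.4%). Stationary phase had 6.38% (5.89 to 6.91%) and log phase (pre-stat), from the other culture, 5.10% (4.49 to 5.76%). The intervals cover counting error only, and each condition had 1 library, so heat shock against log phase and stationary phase against log phase have no test. The gap between the pairs was wider than the difference within either pair, each pair held a log phase sample, and what the gap goes with was not tested.

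**Figure D3:**
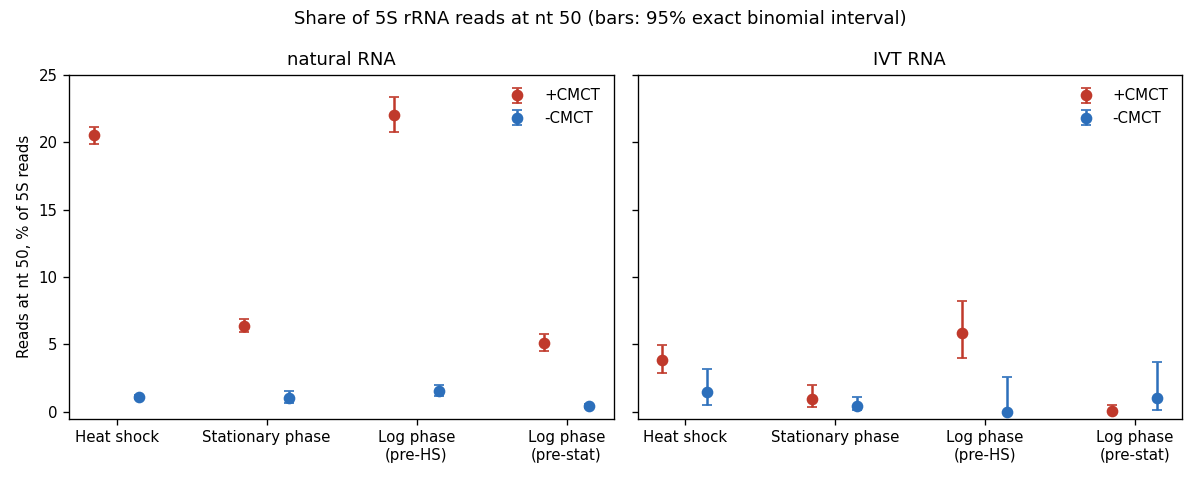
Reads at nt 50 as a percentage of all 5S reads (vertical axis) in each experiment, natural RNA left and IVT RNA right, with +CMCT (red) beside −CMCT (blue); points are single libraries and bars are 95% exact binomial intervals. Natural +CMCT shares of 5.10 to 22.0% lie above natural −CMCT shares of 0.403 to 1.51% in every experiment, and IVT +CMCT shares reach 5.85%.

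In IVT RNA, which is unmodified by the study's methods, nt 50 was raised with CMCT in some libraries. It had 54 reads with CMCT and 6 without it in heat shock, 6 and 4 in stationary phase, 31 and 0 in log phase (pre-HS), and 1 and 2 in log phase (pre-stat). The log2 ratios of 2.97, 0.49, 5.0 and −0.58 ranked number 6, 24, 1 and 102 of 121. The high pair was thus heat shock and log phase (pre-HS), the same 2 experiments that had the highest natural shares. The log2 ratio in natural RNA exceeded that in IVT RNA by 1.13 in heat shock, 4.10 in stationary phase and 3.65 in log phase (pre-stat), and was 1.06 below it in log phase (pre-HS). The IVT −CMCT library of log phase (pre-HS) had 143 5S reads in all, 0 of them at nt 50, so the value there rests on few reads.

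As a share of 5S reads, IVT nt 50 held 3.83% with CMCT and 1.47% without it in heat shock, 0.935% and 0.426% in stationary phase, 5.85% of 530 reads and 0 of 143 reads (3 reads of 143 would be 2.10%, and the upper 95% exact binomial limit is 2.55%) in log phase (pre-HS), and 0.0951% and 1.04% in log phase (pre-stat). The mean difference was 1.94 points (SD 2.93, n = 4), positive in 3 of 4 experiments (two-sided exact permutation test, p = 0.375). The natural difference exceeded the IVT difference in 4 of 4 experiments, by 10.6 points on average (SD 6.22), with p = 0.13 in the same exact test.

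In the edgeR fit of the 8 IVT libraries 0% of 550477 positions were called higher and 0.000727% lower, and none of the 87 5S nucleotides tested was called. The unadjusted p was under 0.05 for 5 higher and 0 lower of the 87, against 8009 higher and 3013 lower of all 550477 positions. Of the 4 nucleotides of 5S rRNA with an adjusted p in DESeq2 none was called, against 0.0327% of 27524 positions. Nt 50 differed by 1.74 on the log2 scale (SE 1.00, unadjusted p = 0.0812, adjusted p = 1). The fit of the natural minus the IVT effect over all 16 libraries called 0.00215% of positions higher and 0.00116% lower, 0.00331% in either direction. There nt 50 had a difference of 1.12 (SE 0.75, unadjusted p = 0.135, adjusted p = 1), so the natural CMCT effect at nt 50 was not shown to exceed the IVT effect in this fit. The fit scales reads to whole libraries, in which 5S reads as a whole were fewer with CMCT in natural RNA and more in IVT RNA. The part of that shift in the value of nt 50 was not tested. Of the 116 5S nucleotides tested in this fit none was called. The unadjusted p was under 0.05 for 0 higher and 25 lower of them, against 8892 higher and 5596 lower of all 604374 positions. DESeq2 called 0 higher and 2 lower of 42, against 99 higher and 335 lower of 30219 positions, 1.44% in either direction. Positions entered this fit by natural reads alone, so some of the 116 had almost no IVT reads. Nt 108 had 0 IVT reads with CMCT and 0 without it, and nt 22 had 0 and 3. These counts thus cover nucleotides chosen by their natural depth. Their median was −1.12, against 0.31 over all positions.

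The IVT libraries were unlike one another on 5S rRNA. The +CMCT library of log phase (pre-stat) had 64.8% of its 5S reads between nt 1 and nt 34, led by nt 10 with 179 reads against 0 without CMCT, where the other 7 IVT libraries had 5.62 to 11.2%. The −CMCT library of log phase (pre-HS) had 61.5% between nt 91 and nt 121, 45 of its 143 reads at nt 120 alone. Nt 85 led both IVT libraries of heat shock (133 and 30 reads), and in stationary phase nt 82 led with CMCT (43 reads) and nt 120 without it (82 reads). Pearson's r of the log2 counts between experiments was 0.213 to 0.757 with CMCT and 0.341 to 0.667 without it over the 121 nucleotides, and between natural and IVT RNA of the same experiment it was 0.222 to 0.833 and 0.143 to 0.723. Leaving out log phase (pre-HS) moved the natural minus IVT difference of nt 50 to 2.09 (unadjusted p = 0.0198, adjusted p = 1), and in that setting the IVT fit called nt 10 higher (adjusted p = 0.0475). In heat shock and stationary phase alone the natural minus IVT difference in share averaged 10.9 points.

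Under a score built after the study's methods, with a threshold taken from these counts, nt 50 passed in heat shock. The score is the distance of a position from the regression of ln(+CMCT reads + 1) on ln(−CMCT reads + 1) over all listed positions, divided by the SD of the residuals, and its threshold is the highest score of 5067 nucleotides of 18S and 25S rRNA that are neither known pseudouridines nor next to one. Neighbours on both sides were left out, whereas the methods name the downstream side, and the threshold under that narrower rule was not computed. Nt 50 scored 6.27 in heat shock (threshold 4.46), 3.66 in stationary phase (threshold 6.17), 8.32 in log phase (pre-HS) (threshold 6.24) and 3.40 in log phase (pre-stat) (threshold 5.17). Of the 43 known pseudouridines of 18S and 25S rRNA, 37, 0, 41 and 16 were above the threshold in the same order. In stationary phase the threshold thus missed every known site, and in log phase (pre-stat) most of them. The criterion against IVT RNA asks for a natural score over 2 units above the IVT score, and nt 50 did so by 3.38 in heat shock but by 0.82 in log phase (pre-HS), where it failed on that criterion alone. With the regression over positions with at least 10 reads, or over positions of equal counts taken once, the excess in log phase (pre-HS) was 3.97 or 2.24 and nt 50 passed both criteria. No other 5S nucleotide was above the threshold in any of the 4 experiments, and the highest of them were nt 31, nt 33, nt 103 and nt 103 with 3.96, 4.32, 4.00 and 4.87. By score nt 50 was number 1 of the 5S nucleotides in heat shock and log phase (pre-HS), and number 4 in stationary phase and log phase (pre-stat).

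Beside the other known pseudouridines of the ribosome nt 50 lay within their range. Among 44 sites (nt 50 and the 43 of 18S and 25S rRNA) its natural log2 ratio ranked number 18 in heat shock, 18 in stationary phase, 24 in log phase (pre-HS) and 36 in log phase (pre-stat), where the 43 sites had medians of 3.77, 4.33, 4.12 and 4.05. In heat shock and log phase (pre-HS) none of 5067 other 18S and 25S nucleotides reached the ratio of nt 50, while 9 did in stationary phase and 85 in log phase (pre-stat). Nt 73 of 5.8S rRNA, the known pseudouridine of the other small ribosomal RNA, had log2 ratios of 4.70, 5.79, 5.16 and 4.15, above nt 50 in 4 of 4 experiments.

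In IVT RNA the same 43 sites had median ratios of 1.32, 0.58, 2.58 and 1.00, and nt 50 ranked number 2, 26, 1 and 39 of 44. The 5067 other 18S and 25S nucleotides had median IVT ratios of 1.17, 0, 0.58 and 0.58 in the same order, so the 43 sites were above them in all 4 experiments and most so in log phase (pre-HS). The 5S site had 60, 10, 31 and 3 IVT reads in the 4 experiments, and the 43 sites had medians of 19, 19, 14 and 12.

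**Figure D4:**
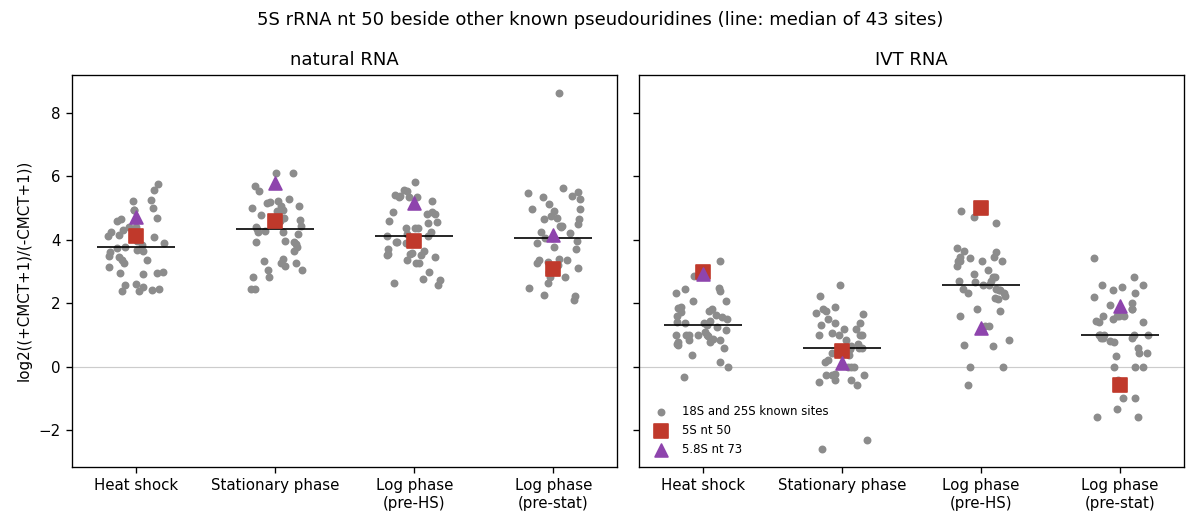
Log2 ratio of +CMCT to −CMCT reads, 1 read added to each (vertical axis), at nt 50 of 5S rRNA (red square), nt 73 of 5.8S rRNA (triangle) and 43 known pseudouridines of 18S and 25S rRNA (grey points, with their median as a line; horizontal scatter within an experiment has no meaning) for natural RNA left and IVT RNA right. Nt 50 lies within the range of the 43 sites in natural RNA in each experiment, and at 5.0 it is the highest IVT point of log phase (pre-HS).

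Reads at nt 50 cannot be assigned to 1 gene copy. The annotation has 6 RDN5 genes on chromosome 12, and the 5124 reads of the 16 libraries at nt 50 of the first are listed with the same 16 counts at each of the other 5. Equal counts ran over nt 35 to nt 81 in all 6 copies, the stretch that holds 68.8% of the reads of the first copy, while nt 1 to nt 34 held 5.24% and nt 82 to nt 121 held 26.0%. The copy RDN5-2, which lies 9137 nt further on as deposited, had equal counts at 84 of 121 nucleotides, RDN5-6 at 56, and RDN5-3, RDN5-4 and RDN5-5 at 50. The 95 nucleotides of the first copy with at least 50 reads and the positions elsewhere with the same 16 counts together numbered 363. Of these, 0 lay on another chromosome and 0 outside the annotated copies. Nt 85, nt 89 and nt 103 lie in the 3′ stretch where the first copy differs in counts from RDN5-2. Nt 85 is listed with the same 16 counts in RDN5-6, so its reads cannot be assigned to the first copy either. Nt 89 and nt 103 share their counts with no other copy, and their values are those listed for the first copy.

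**Figure D5:**
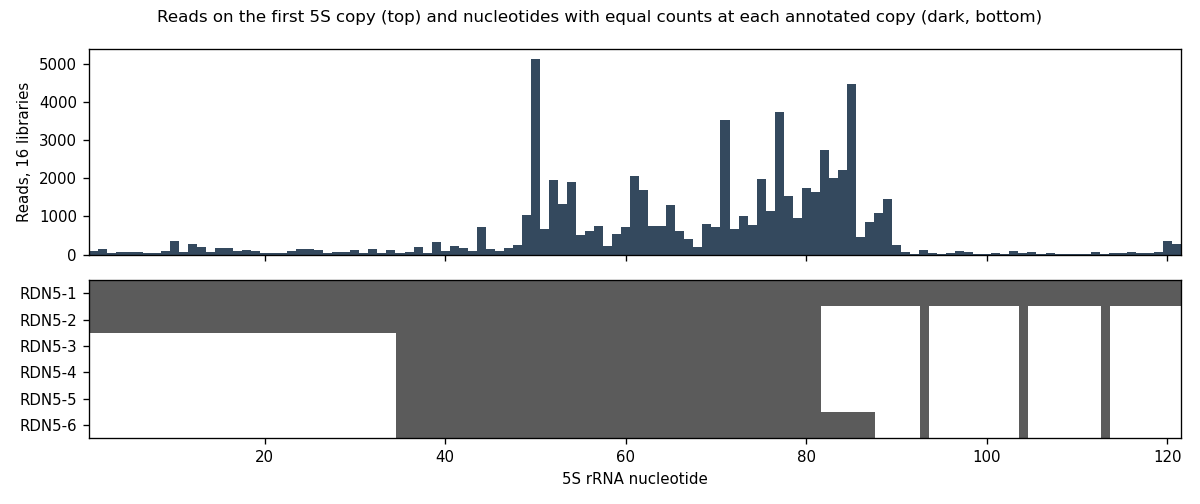
Top, reads of all 16 libraries at each nucleotide of the first 5S copy (vertical axis, number of reads; horizontal axis, nucleotide number). Bottom, the 6 annotated copies in rows, dark where a nucleotide is listed with the same 16 counts as in the first copy, so that nt 35 to nt 81, which include the peak of 5124 reads at nt 50, are dark in all 6.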

How the data were processed

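The authors aligned reads with Bowtie 0.12.5 to a genome that the submitters' notes name sacCer3, with at most 2 mismatches, and deposited raw counts of reads per position, without strand, base or normalization. Their methods state random assignment of reads with several matches, and that rRNA reads of the same loci were pooled and placed in files of their own. In the listed counts 200918 of 383847 positions with at least 50 reads shared all 16 counts with another position. Equal positions were counted once (library totals of 1636982 to 10416279 reads, against 3925245 to 25759455 as listed). Log phase columns were used by the culture stage in their names, since the labels number these samples otherwise.

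Fits used edgeR 4.0.16 in R 4.3.3 with TMM factors, trended dispersion and at least 10 reads, and standard errors were taken as the difference over the root of F. The minimum was counted over natural libraries in the natural and the natural minus IVT fits, and over IVT libraries in the IVT fit. The alternative was DESeq2 1.42.0. Because both portions of an RNA came from the same preparation, the experiment was a block. Deviations of the 2 portions correlated at 0.82 to 0.862 in natural RNA, and at 0.719, 0.9, 0.004 (log phase, pre-HS) and 0.674 in IVT RNA. The IVT +CMCT library of log phase (pre-HS) correlated more with the −CMCT portion of another experiment, at up to 0.274. The p-values measure the spread over 4 experiments from 2 cultures. The nucleotides named were nt 49 to 51, the 5 highest natural ratios per experiment, the most read nucleotide per library and every called one. Members and lists were chosen with earlier results of these data known. Genes of the 5S particle and U2 snRNA were not analysed here, because the listed positions do not match the annotation used.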

Additional observations from a re-analysis of the deposited data

Results flagged for a closer look

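The CMCT effect on the share of 5S reads at nt 50 of IVT RNA ran against the other experiments in log phase (pre-stat). The share was lower with CMCT by 0.941 points there (a difference of −0.941, 1 read of 1052 against 2 of 193), whereas it was higher with CMCT in heat shock, stationary phase and log phase (pre-HS). The difference between experiments was not tested, and the 95% exact binomial intervals of 0.00241 to 0.528% and 0.126 to 3.69% overlap. In the same +CMCT library 64.8% of 5S reads lay between nt 1 and nt 34, and the part of that in the value was not tested.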

How the results depend on the processing

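The direction of the CMCT effect at nt 50 held in natural RNA under each alternative run, at 2.93 to 3.60 on the log2 scale. With no replicate block it was 3.60 with an adjusted p of 0.128, the one setting that ended its call, and then 0 5S nucleotides were called higher and 0 lower, and 26 positions in all against 3165 with the block. The block changed no other call of nt 50. Among 5S nucleotides in natural RNA, 2 higher and 2 lower calls of 116 became 1 and 11 of 116 with library sizes alone, 1 and 0 of 121 from 3 reads on and 2 and 14 of 78 in DESeq2. The shares of all positions called in either direction were 0.524%, 0.464%, 0.0396% and 8.47% in the same order. Leaving out 1 experiment gave 1 higher and 0 to 16 lower. The most lower calls came without stationary phase and none without log phase (pre-HS), where 1.08% and 0.0173% of all positions were called. All natural calls numbered 3165, against 836 from 3 reads on, 6503 with all listed positions, 8517 in DESeq2 and 92 to 5060 with 1 experiment left out. IVT calls numbered 4, against 0 from 3 reads on, from 50 reads on and without the block, 57 with all listed positions, 9 in DESeq2 and 0 to 124 with 1 experiment left out, and among 5S nucleotides they ranged over 0 to 1. Their direction turned with the setting, with 0 higher and 4 lower as reported, 44 and 13 with all listed positions, 9 and 0 in DESeq2, 124 and 0 without log phase (pre-HS), 8 and 0 without stationary phase, and 1 and 0 without log phase (pre-stat). Calls of the natural minus IVT effect numbered 20 (13 higher and 7 lower), against 44 with library sizes alone (21 and 23), 1 from 3 reads on, 9 from 50 reads on, 36 with all listed positions, 0 without the block, 434 in DESeq2 and 0 to 64 with 1 experiment left out, and 5S nucleotides called lower numbered 1 with library sizes alone, 2 in DESeq2 and 0 to 1 with 1 experiment left out.

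The rank of nt 50 in log phase (pre-stat) became 1 with 10 reads added and 8 with 0.5 reads added, against 6, and with 0.5 reads added it was number 2 in heat shock and 3 in stationary phase, against 1 in both. In its place nt 49 ranked 44, 29, 79 and 72 and nt 51 ranked 67, 30, 58 and 58 in heat shock, stationary phase, log phase (pre-HS) and log phase (pre-stat). The score in log phase (pre-HS) passed both criteria at 5.12 with the regression over positions with at least 10 reads and at 10.5 with equal counts taken once. Leaving out 1 experiment, the nt 50 difference ranged over 1.16 to 2.71 in IVT RNA and 0.87 to 2.09 for natural minus IVT, and the difference in share over 9.82 to 15.1 points in natural RNA, 0.642 to 2.91 in IVT RNA and 8.38 to 12.5 for natural minus IVT. Heat shock and stationary phase alone were chosen as a setting after the data were seen. Depth limits the IVT values, with 143 to 1411 reads on 5S rRNA per library and 3 to 60 at nt 50 per experiment. The causes of these shifts were not tested.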
